A study of Mus musculus with 7 samples.

Results

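The genes described here were 39 genes of the Hedgehog, parathyroid hormone-related protein (PTHrP) and Notch pathways, chosen by name: 14 Hedgehog, 7 PTHrP and 18 Notch genes out of 21924 annotated protein-coding genes. A peak was counted at a gene when the peak list gave it that gene's symbol, or when it lay in the gene body or in the 5000 bp upstream. Of the 8949 peaks in the 4 lists, 34 lay at these genes. The samples were of unmodified ATDC5, a line of mouse chondroprogenitor cells that matures toward cartilage cells in medium with insulin, transferrin and selenite. DNA enriched for 5-methylcytosine (5mC) was labelled day 0 (1 sample) and day 10 (1 sample), and DNA enriched for 5-hydroxymethylcytosine (5hmC), the first oxidation product of 5mC, was labelled day 5 (2 samples) and day 10 (2 samples). A further day 0 sample of input DNA was not analysed here. The study's own account names progenitor, intermediate and chondrocyte stages on other days than the labels, so the stage of each list was not settled and the labelled days are used. The number of cultures behind the samples is not in the labels. ATDC5 is a single line and limits the data to 1 genetic background. No expression was measured in these lists, so the cell type could not be checked against its markers.

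In growth plate cartilage, Indian hedgehog from prehypertrophic chondrocytes binds Patched receptors, which frees Smoothened and changes the processing of the GLI transcription factors. It also maintains PTHrP, which acts through the receptor PTH1R and the stimulatory G protein to delay hypertrophy, in part by letting the histone deacetylase HDAC4 hold MEF2 factors in check. Notch receptors, cleaved after binding Jagged or Delta ligands, enter the nucleus and form a complex with RBPJ and a Mastermind-like protein on HES and HEY genes. 5hmC is made from 5mC by TET enzymes and is common in the bodies and enhancers of genes in use.

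Of the 39 genes, 16 had a peak in at least 1 list (41% of the genes, beside 15.9% of all protein-coding genes) and 23 had none. No list had a replicate, since each 5mC list came from 1 sample and each 5hmC list from 2 merged samples. The lists gave no score, fold or count for a peak, so all values below are positions, counts and sequence contents with no error and no test. Sequence depth was unknown. The median length of the 39 genes was 35.19 kb, against 17.41 kb for all protein-coding genes, and longer genes can hold more peaks, so the counts are also given by length.

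One 5hmC site was in the lists of both days, in an intron of Maml3, and its day 10 peak is shown for that reason. Sequences here are from the plus strand of the RefSeq GRCm38.p6 assembly, in lower case. Capitals mark the string TGGGAA, or its complement TTCCCA, which is the core that the Notch effector RBPJ prefers.
Maml3, day 10 5hmC, chr3:52013156-52013288: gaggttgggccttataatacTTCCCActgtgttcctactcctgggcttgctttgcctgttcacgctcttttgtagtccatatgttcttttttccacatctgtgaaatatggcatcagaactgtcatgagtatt

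Of the day 10 5hmC peaks of at most 300 bp outside untranslated exons, the next 6 are shown because they touched a coding exon or held a string of the pathways' own factors. Capitals mark TGGGAA or TTCCCA (RBPJ), CACGTG or CACGCG or CGCGTG (sites of HES and HEY repressors, which overlap each other in the Notch2 peak) and GGAATG (TEAD). The RBPJ string was present in the peaks of Notch2, Boc, Cdon and Maml2, and a CACGTG in that of Maml3.
Notch2, day 10 5hmC, chr3:98107156-98107375: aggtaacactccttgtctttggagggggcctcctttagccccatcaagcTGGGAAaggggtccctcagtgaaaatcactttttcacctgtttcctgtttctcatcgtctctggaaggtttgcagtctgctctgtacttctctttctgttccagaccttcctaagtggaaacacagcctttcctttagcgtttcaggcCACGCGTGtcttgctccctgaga
Boc, day 10 5hmC, chr16:44510879-44511106: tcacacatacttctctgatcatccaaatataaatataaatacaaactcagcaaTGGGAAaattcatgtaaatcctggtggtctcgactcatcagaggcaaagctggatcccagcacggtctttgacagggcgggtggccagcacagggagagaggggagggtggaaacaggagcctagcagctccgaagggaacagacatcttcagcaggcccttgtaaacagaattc
Boc, day 10 5hmC, chr16:44557030-44557194: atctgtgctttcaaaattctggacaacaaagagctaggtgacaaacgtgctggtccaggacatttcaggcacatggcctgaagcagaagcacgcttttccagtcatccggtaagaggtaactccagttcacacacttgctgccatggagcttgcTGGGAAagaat
Cdon, day 10 5hmC, chr9:35468002-35468142: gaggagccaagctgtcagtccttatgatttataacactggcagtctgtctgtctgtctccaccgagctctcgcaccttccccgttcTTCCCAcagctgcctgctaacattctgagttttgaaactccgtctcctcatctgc
Maml2, day 10 5hmC, chr9:13612586-13612747: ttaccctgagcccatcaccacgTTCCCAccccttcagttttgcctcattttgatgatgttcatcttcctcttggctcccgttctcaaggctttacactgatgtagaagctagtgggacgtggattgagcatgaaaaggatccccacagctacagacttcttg
Maml3, day 10 5hmC, chr3:51717595-51717746: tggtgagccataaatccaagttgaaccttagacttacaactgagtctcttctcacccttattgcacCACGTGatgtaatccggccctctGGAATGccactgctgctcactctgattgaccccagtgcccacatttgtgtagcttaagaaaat

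In the wider day 5 5hmC peaks, the string TGACTCA, a site of the AP-1 factors, was found at 4 genes. On either strand it was in 4 of the 7 peaks, beside 43.1% of all day 5 peaks. The sites at these genes are shown, with 20 bases on either side, for the 3 that lay outside an annotated untranslated exon. They were chosen after the values were seen. Capitals mark the site. The Gli3 and Pthlh sites lay 54 and 65 bp from the midpoint of their peaks, and the Maml2 site lay 187 bp from it.
Gli3, day 5 5hmC, chr13:15461770-15461816: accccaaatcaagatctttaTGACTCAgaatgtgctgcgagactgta
Pthlh, day 5 5hmC, chr6:147252883-147252929: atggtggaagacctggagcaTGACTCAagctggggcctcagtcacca
Maml2, day 5 5hmC, chr9:13533199-13533245: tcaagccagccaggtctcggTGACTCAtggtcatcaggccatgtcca

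The day 0 5mC list (326 peaks) held no peak at any of the 39 genes, and 0.556% of all protein-coding genes had one. The day 10 5mC list (2401 peaks) held 4 peaks at 3 genes, Kif7, Jag1 and Maml3, or 7.69% of the genes beside 6.72% of all protein-coding genes. The day 5 5hmC list (2058 peaks) held 7 peaks at 6 genes, Ptch1, Gli2, Gli3, Pthlh, Maml2 and Maml3, or 15.4% beside 5.28%. The day 10 5hmC list (4164 peaks) held 23 peaks at 11 genes, Boc, Cdon, Sufu, Pth1r, Gnas, Hdac4, Jag1, Notch2, Rbpj, Maml2 and Maml3, or 28.2% beside 8.32%. A 5hmC peak at either day was present at 15 of the 39 genes (38.5%, beside 11.1%). Of these, 4 had it at day 5 and not day 10, 9 at day 10 and not day 5, and 2 at both days. Those 2 were 5.13% of the 39 genes, beside 2.54% of all protein-coding genes, and of the 2425 protein-coding genes with 5hmC at either day 23% had it at both. Without regard to gene length, 5hmC was thus listed at a larger share of these genes than of protein-coding genes as a whole. The share with day 10 5mC was near that of all genes. Per Mb, day 10 5mC was at 1.16 peaks against 1.48 for all protein-coding genes, and 5hmC stayed above, as given below.

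**Figure D1:**
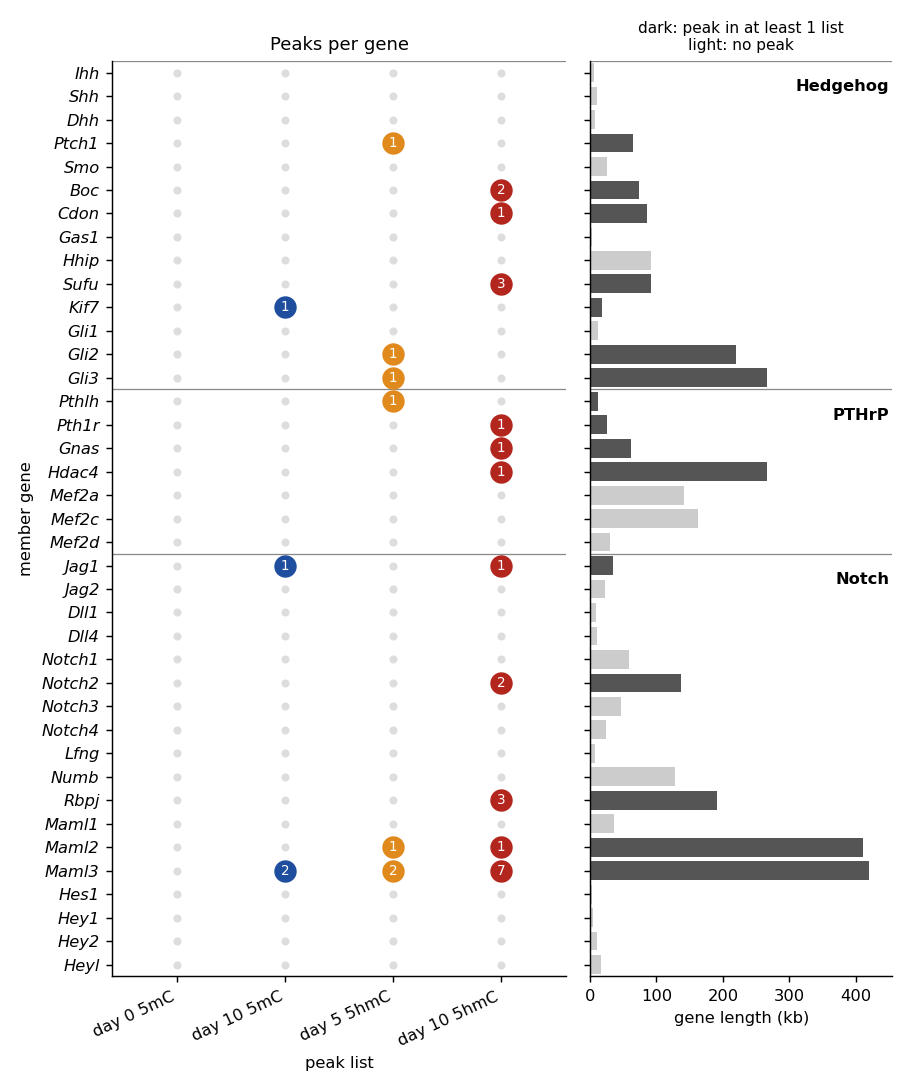
Number of peaks at each of the 39 genes (rows) in each of the 4 lists (columns, numbered circles, small grey dots for none), with gene length in kb as bars on the right. The 16 genes with a peak had a median length of 89.22 kb and the 23 without one 16.32 kb.

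Among the Hedgehog genes, 7 of 14 had a peak (50%, beside 15.9% of all protein-coding genes), and the ligands had none. Ihh, Shh and Dhh, which encode the secreted ligands, are 6.358, 10.44 and 7.389 kb long. The nearest listed peaks were a day 10 5hmC peak 49612 bp upstream of Ihh, to which the list gave the symbol Nhej1, and a day 10 5mC peak 16068 bp downstream of Shh. Dhh had no peak within 50 kb.

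At the receptor side, Ptch1, which encodes the Hedgehog receptor and is itself a target of the pathway, had 1 day 5 5hmC peak of 1062 bp (chr13:63513082-63514143). It covered a 255 bp exon 59.99 kb from the gene start, at 91.9% of the gene's length, and held 30 CpG sites, or 2.83 per 100 bp against 0.659 in its flanks. That exon is coding in the main transcript and untranslated in another. The nearest day 10 5hmC peak was 138794 bp away. The co-receptors Boc and Cdon, which help cells to bind the ligand, had day 10 5hmC peaks and no day 5 peak. Boc had 2 intronic peaks, of 165 bp (chr16:44557030-44557194), 1.79 kb from the gene start, and of 228 bp (chr16:44510879-44511106), 47.91 kb from it. Cdon had 1 intronic peak of 141 bp (chr9:35468002-35468142), 46.94 kb from its start. The signal transducer Smo, the co-receptor Gas1 and the ligand-binding antagonist Hhip had no peak. A day 10 5hmC peak lay 25101 bp upstream of Smo. Gas1 had a day 10 5hmC peak 16155 bp and a day 5 peak 29244 bp upstream.

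Downstream of the receptor, Sufu, which holds GLI proteins in the cytoplasm, had 3 day 10 5hmC peaks, all intronic. These were 137, 177 and 309 bp wide (chr19:46412107-46412243, chr19:46470586-46470762 and chr19:46483902-46484210) and lay 15.28, 73.78 and 87.16 kb from the gene start. The last was 234 bp from an exon. Kif7, a kinesin of the cilium that acts on GLI processing, had a day 10 5mC peak of 1536 bp (chr7:79718015-79719550), 2295 bp upstream of the gene. No 5hmC peak was assigned to Kif7, and the nearest day 5 5hmC peak was 8813 bp from the 5mC peak.

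Of the GLI factors, Gli2 and Gli3 had day 5 5hmC, and Gli1, a target gene of the pathway, had no peak. Gli2, the main activator, had a 1064 bp peak (chr1:118982123-118983186) 70.97 kb from the start of the gene, over the 121 bp first exon of an annotated noncoding transcript. Gli3, which gives the main repressor, had a 457 bp peak (chr13:15461511-15461967) 1268 bp upstream of the gene, which also covers the predicted gene Gm6556. So the Hedgehog genes with day 5 5hmC (Ptch1, Gli2 and Gli3) and those with day 10 5hmC (Boc, Cdon and Sufu) were different genes. Of all protein-coding genes with day 5 5hmC, 48.1% also had a day 10 peak. Widths differed between these lists as a whole, with medians of 819 bp at day 5 and 147 bp at day 10, and thresholds or depth that could set them were not tested.

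Of the 7 PTHrP genes, 4 had a 5hmC peak (57.1%, beside 11.1% of all protein-coding genes). None had a 5mC peak, which 0.556% of all protein-coding genes had at day 0 and 6.72% at day 10. Pthlh, which encodes PTHrP, had a day 5 5hmC peak of 631 bp (chr6:147252526-147253156). This gene of 12.08 kb was the shortest of the 16 with a peak. The peak ran from intron into the last exon, over 7 bp of coding and 45 bp of untranslated sequence, 11.34 kb from the gene start, and held 15 CpG sites (2.38 per 100 bp, flanks 0.792). Its receptor gene Pth1r had a day 10 5hmC peak of 402 bp (chr9:110724870-110725271), the widest of the 23, over a 61 bp coding exon, with 13 CpG sites. Gnas, the gene of the stimulatory G protein that the receptor acts through, had a day 10 peak of 262 bp (chr2:174343084-174343345) over a 98 bp exon that is coding in some of its transcripts and untranslated in others, at 94.3% of the gene. Gm20721 is annotated over the same peak. Hdac4 had a day 10 peak of 108 bp (chr1:91955400-91955507), the narrowest of the 23, in an intron 13 bp from an exon and 240.2 kb from the gene start. In this pathway the ligand gene was listed at day 5, and the receptor, the G protein and the deacetylase at day 10. A listing at only 1 of the days was common. Of all protein-coding genes with 5hmC at either day, 23% had it at both. Mef2a, Mef2c and Mef2d, the factors that HDAC4 restrains, had no peak. Mef2c, of 163 kb, was the longest of the 39 genes without one, and peaks lay 39963 bp (day 10) and 46798 bp (day 5) upstream of Mef2a.

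Of the 18 Notch genes, 5 had a peak (27.8%, beside 15.9% of all protein-coding genes), with 20 of the 34 peaks among them. Maml3 alone held 11, and without it the Notch genes held 9 of 23. Of the ligand genes, Jag1 had 2 peaks, and Jag2, Dll1 and Dll4 had none. The Jag1 5mC peak at day 10 was 732 bp wide (chr2:137082696-137083427) and lay within the last exon, over 401 bp of coding and 331 bp of untranslated sequence. It held 27 CpG sites, or 3.69 per 100 bp against 0.956 in the flanks. A day 10 5hmC peak of 190 bp (chr2:137079479-137079668) followed 3028 bp further, 1788 bp past the gene's 3′ end, and was placed at Jag1 by the list's symbol alone. It held no CpG site, as did 6.56% of all day 10 5hmC peaks.

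Of the receptor genes, Notch2 had 2 day 10 5hmC peaks, and Notch1, Notch3 and Notch4 had none. The first Notch2 peak, of 190 bp (chr3:98015345-98015534), was in an intron 1.91 kb from the gene start, with 9 CpG sites (4.74 per 100 bp, flanks 2.11). The other, of 220 bp (chr3:98107156-98107375), lay 93.74 kb from the start, and 2 of its bases were in a coding exon. The nearest peak to Notch1 was a day 10 5hmC peak 12895 bp upstream. Lfng, a glycosyltransferase that changes ligand choice, and Numb, an adaptor that restrains Notch, had no peak.

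The genes of the nuclear complex held 16 of the 20 Notch peaks, 11 of them at Maml3. The 3 with peaks, Rbpj, Maml2 and Maml3, are long genes of 191.2, 411.4 and 419.2 kb. The part of length in this count was not tested. Rbpj, the DNA-binding partner of the cleaved receptor, had 3 day 10 5hmC peaks in introns, of 211, 210 and 198 bp (chr5:53509551-53509761, chr5:53552701-53552910 and chr5:53563681-53563878), 43.5, 86.65 and 97.63 kb from the gene start. The first of these had no symbol in the list and held 8 CpG sites (3.79 per 100 bp, flanks 0.711). Maml2, a co-activator of the complex, had a day 5 peak of 678 bp (chr9:13533071-13533748) and a day 10 peak of 162 bp (chr9:13612586-13612747), both intronic and 78838 bp apart. The list gave the day 5 peak no symbol. Maml1 had no peak.

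Maml3, the other Mastermind-like co-activator and with 419.2 kb the longest of the 39 genes, had 11 peaks, all intronic. It had 2 day 10 5mC peaks of 1536 and 1264 bp (chr3:51850225-51851760 and chr3:51878278-51879541), 254.1 and 226.2 kb from the gene start. It had 2 day 5 5hmC peaks of 1024 and 930 bp (chr3:51708606-51709629 and chr3:52012546-52013475), 396.0 and 92.07 kb from the start. The 7 day 10 5hmC peaks were 109 to 152 bp wide and lay 91.85 to 387.4 kb from the start. One of them, 133 bp wide (chr3:52013156-52013288), lay inside the 930 bp day 5 peak. Another, of 138 bp (chr3:51908507-51908644) and 196.5 kb from the start, held 7 CpG sites, or 5.07 per 100 bp, the densest of the 34 peaks. Its flanks held 2.9 per 100 bp, and Gm10728 is annotated over the same peak. The 5mC and 5hmC peaks of Maml3 came no nearer to each other than 28966 bp. Of all protein-coding genes, 15 had at least 7 day 10 5hmC peaks (0.0684%). Of the 354 genes of at least 400 kb, 9 had as many, and the median of these long genes was 0. Of the 7 peaks at Maml3, 2 (chr3:51778878-51778986 and chr3:51779288-51779400) lay within 1000 bp of each other. With peaks within that distance merged, the 39 genes had 22 day 10 5hmC peaks instead of 23. The comparison with other genes was not made with merged peaks.

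**Figure D2:**
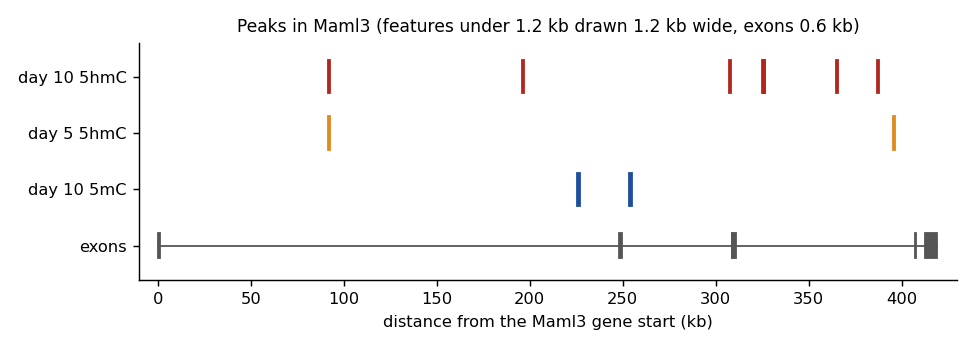
Peaks in Maml3 against distance from the gene start in kb, 1 row per list, with exons at the bottom. The day 5 5hmC peak at 92.07 kb and the day 10 5hmC peak at 91.85 kb overlap, and the 2 day 10 5mC peaks at 226.2 and 254.1 kb lie apart from all 5hmC peaks.

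The Notch target genes Hes1, Hey1, Hey2 and Heyl, 3.413 to 16.32 kb long, had no peak in any list. The nearest peak was a day 10 5hmC peak 28689 bp downstream of Hes1. Of the other genes without a peak, Jag2 had a day 10 5hmC peak 26082 bp and a day 5 5hmC peak 31831 bp downstream. Dll4 had a day 10 5mC peak 45176 bp downstream, with the symbol Ino80, and Lfng a day 10 5hmC peak 35799 bp downstream, with the symbol Ttyh3. Of all protein-coding genes under 20 kb, the length class of these HES and HEY genes and of Gli1, 6.44% had a peak in any list, so the absence of peaks there is near the background.

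Gene length moved with the presence of a peak, and its part in these counts was not tested. Of the 14 genes under 20 kb, 1 had day 10 5mC (2.84% of all protein-coding genes of that length), 1 had day 5 5hmC (1.78%) and none had day 10 5hmC (2.62%). Of the 15 genes of 20 to 100 kb, 1 had day 10 5mC (7.86%), 1 had day 5 5hmC (6.33%) and 6 had day 10 5hmC (40%, beside 9.44%). Of the 10 genes over 100 kb, 1 had day 10 5mC (21.6%), 4 had day 5 5hmC (40%, beside 18.6%) and 5 had day 10 5hmC (50%, beside 31.9%). The shares for 5hmC thus lay above those of protein-coding genes of the same class at 20 to 100 kb for day 10. They also did over 100 kb for both days. Each of these shares rests on 4 to 6 genes with a peak. The class over 100 kb has no upper limit and includes Maml2 and Maml3, of 411.4 and 419.2 kb. Per length, the 39 genes with their upstream regions held 6.38 day 10 5hmC peaks per Mb, against 2.12 for all protein-coding genes. Day 5 5hmC was at 2.03 peaks per Mb against 1.1, and day 10 5mC at 1.16 against 1.48. Without Maml3, these values were 4.96 for day 10 5hmC, 1.65 for day 5 5hmC and 0.662 for day 10 5mC.

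**Figure D3:**
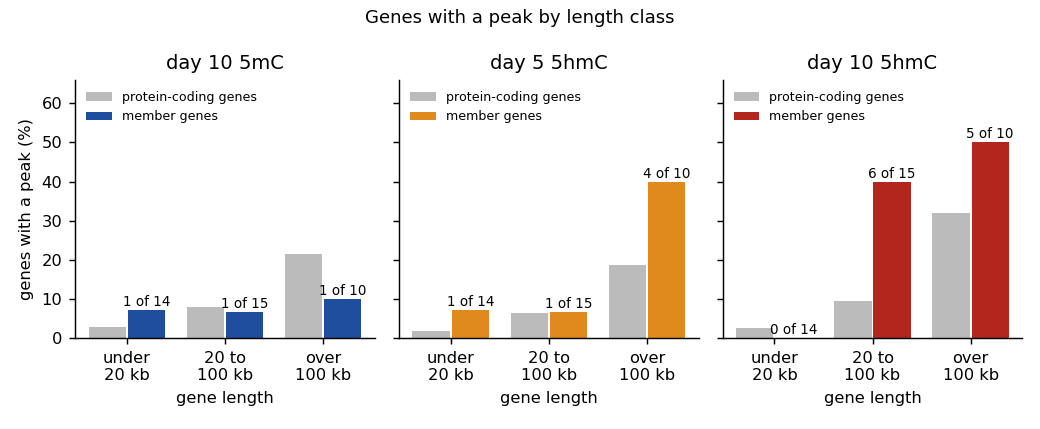
Percent of genes with a peak in 3 lists by gene length class, for all protein-coding genes (grey) and for the Hedgehog, PTHrP and Notch genes (coloured, with the number of genes). At day 10, 6 of 15 genes of 20 to 100 kb had a 5hmC peak (40%), and 9.44% of all genes of that length did.

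Few 5hmC sites of these genes were in the lists of both days. An overlap with the day 10 list was found for 1 of the 7 peaks of day 5, beside 29.6% of all 2058. An overlap with the day 5 list was found for 1 of the 23 peaks of day 10, beside 17.1% of all 4164. Both counts are the Maml3 site whose sequence is given above. The 23 day 10 peaks had a median distance of 127560 bp to the closest peak of the day 5 list, and the 7 day 5 peaks one of 138794 bp to the closest of the day 10 list. No median over all peaks of either list is set beside these distances, so they are not read as a trait of these genes. 5mC and 5hmC were both listed at 2 genes, Jag1 and Maml3, and 5mC without 5hmC at 1, Kif7. No peak of one mark overlapped a peak of the other at these genes. No share over all genes or peaks is set beside these counts of both marks, so they are not read as a trait of these genes.

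Most peaks at these genes were in introns: 24 of 34, with 7 over an exon, 2 in the 5000 bp upstream (Kif7 and Gli3) and 1 past the gene end (Jag1). By list, day 5 5hmC had 3 of 7 in introns, beside 64.5% of that list's peaks at protein-coding genes. Of the others, 2 touched a coding exon (18%), 1 another exon (5.12%) and 1 was upstream (12.3%). Day 10 5mC had 2 of 4 in introns (39.1%), 1 at a coding exon (47.1%) and 1 upstream (8.94%). For day 10 5hmC, 19 of 23 were intronic, 3 touched a coding exon and none was upstream, where all day 10 5hmC peaks at protein-coding genes were intronic in 79.2%, at a coding exon in 5.98% and upstream in 10.5%. Along the genes, 11 of the 31 peaks with their midpoint in a gene body lay in the last 20% of the gene's length, at 8 genes, and without Maml3 the count was 8 of 20. Over all protein-coding genes, 23.2% of peaks in gene bodies lay there, with the lists pooled in another mix. By list, 7 of 22 day 10 5hmC peaks lay there (19.5% over all genes), 3 of 6 day 5 5hmC peaks (22.4%) and 1 of 3 day 10 5mC peaks (29.6%). Of the 7 exon peaks, 5 were in the last 20%, at Ptch1, Pthlh, Pth1r, Gnas and Jag1. The other exon peaks, at Gli2 and Notch2, lay at 32.3% and 68.5% of the gene. The share of exon peaks in the last 20% over all protein-coding genes is not given, so this count has no comparison.

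**Figure D4:**
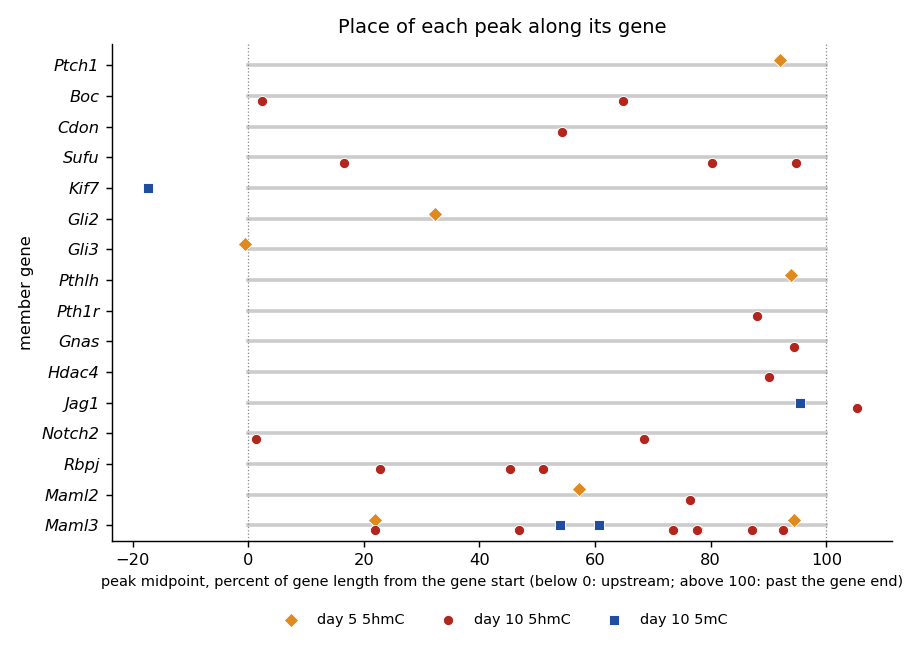
Midpoint of each of the 34 peaks as percent of the gene's length from its start, 1 row per gene, for the 16 genes with a peak; values below 0 are upstream and values over 100 past the gene end. The peaks of Ptch1, Pthlh, Pth1r, Gnas and Hdac4 and the 5mC peak of Jag1 lie between 88.09 and 95.44%.

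Both marks occur mainly at CpG sites, so the CpG content of each peak was set beside flanks of equal width that began 2000 bp from its edges. CpG density was above that of the flanks in 18 of 23 day 10 5hmC peaks, equal in 4 and below in 1, with a median of 1.85 per 100 bp against 0.971 in the flanks. Of all day 10 5hmC peaks, 70.2% lay above their flanks. In the day 5 list, 6 of 7 peaks lay above (median 1.97, flanks 1.03), beside 79.3% of all peaks of the list. In the day 10 5mC list, 3 of 4 lay above (median 2.31, flanks 1.81), beside 90.2%. The exceptions in these last lists were the upstream peaks, Gli3 with 1.97 against 6.89 and Kif7 with 1.56 against 3.78 per 100 bp. A flank of the Kif7 peak reached over the gene start, and a flank of the Gli3 peak lay in the first part of the gene. No peak at these genes was marked as repeat over more than 50% of its length. Few peaks were in the lists as a whole: 7.0% for day 10 5mC, 3.01% for day 5 5hmC and 7.66% for day 10 5hmC. Of the 23 day 10 5hmC peaks, 12 held no repeat (51.3% of all peaks of that list).

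**Figure D5:**
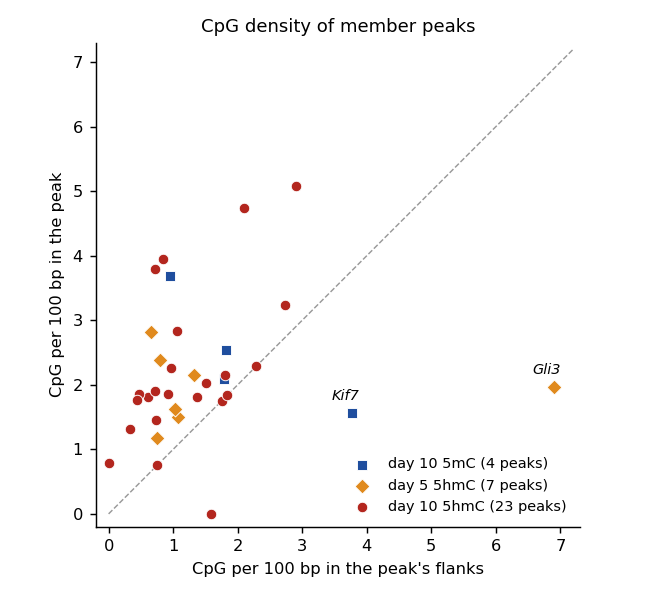
CpG sites per 100 bp in each of the 34 peaks against the same measure in its flanks, with the dashed line at equal values. Points above the line are peaks richer in CpG than their surroundings, and the upstream peaks of Gli3 and Kif7 lie below it.

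Motif strings were counted on both strands as a description of the sequences, and a match is not a bound site. The AP-1 string (TGACTCA or TGAGTCA) was in 4 of 7 day 5 5hmC peaks, at Ptch1, Gli3, Pthlh and Maml2, and in 43.1% of all day 5 peaks. It was in 1 of 23 day 10 5hmC peaks, at Notch2, and in 7.97% of all day 10 peaks. TGGGAA was in 6 of 7 day 5 peaks (59.8% of all) and 7 of 23 day 10 peaks (17% of all). In windows of 200 bp around the midpoints it was in 1 of 7 (20.5% of all) and 6 of 23 (19.6% of all). Such a window is narrower than the day 5 peaks and wider than most day 10 peaks. CACGTG or CACGCG was in 4 of 7 day 5 peaks (36.4%) and 3 of 23 day 10 peaks (12.2%). GGAATG (TEAD) was in 1 of 7 (43.3%) and 3 of 23 (12.9%), and AACCACA (RUNX) in none of 7 (25.6%) and 1 of 23 (7.56%). The SOX string, ACAAAGG or ACAATGG, was in 1 of 7 (27.2%) and 1 of 23 (5.38%). Among the 4 5mC peaks, AP-1 was in 2 (13.4%), TGGGAA in 3 (60.6%), RUNX in 3 (19.8%), TEAD in 3 (41.1%) and SOX in 1 (30.2%). CACGTG or CACGCG was in none of the 4 (31.9%). Of the other strings, the GLI string ACCACCCA (4.86% of all day 5 and 0.865% of all day 10 5hmC peaks), the CREB string TGACGTCA (0.777% and 0.024%), the MEF2 motif (1.8% and 0.36%) and the NF1 string CTGCCAAG or TTGCCAAG (14.2% and 5%) were in none of the 34 peaks. Of all day 10 5mC peaks, these GLI, CREB, MEF2 and NF1 strings were in 4.33%, 3.33%, 1.37% and 9.5%. With 4, 7 and 23 peaks in the lists, these counts were not tested against the shares of all peaks.

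Beyond the 39 genes, 122 further genes of the same pathways were searched in the same way. A peak in at least 1 list was present at 38 of them (31.1%, beside 15.9% of all protein-coding genes). By list, 1 had day 0 5mC (0.82%, beside 0.556%), 14 had day 10 5mC (11.5%, beside 6.72%), 14 had day 5 5hmC (11.5%, beside 5.28%) and 23 had day 10 5hmC (18.9%, beside 8.32%). By length, a peak in any list was at 2 of 33 genes under 20 kb (6.06%, beside 6.44% of all genes of that length), 18 of 54 genes of 20 to 100 kb (33.3%, beside 19.9%) and 18 of 35 genes over 100 kb (51.4%, beside 48.3%). The day 0 5mC peak was at Prkar2a, a regulatory subunit of protein kinase A.

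In the Hedgehog list, 13 of 39 further genes had a peak (33.3%). Ext1, which builds the heparan sulphate that Hedgehog ligands bind, had 1 day 5 and 2 day 10 5hmC peaks, and the day 5 peak (chr15:53130573-53131566) overlapped a day 10 peak (chr15:53130700-53131239). Scube3, of a family that releases lipid-modified ligand, had 2 day 5 peaks and 1 day 10 peak, of which 1 pair overlapped (chr17:28170602-28171436 and chr17:28170786-28170947). Disp1, which exports the ligand, had day 10 5mC and day 10 5hmC, and Hhat, which adds palmitate to it, had day 5 and day 10 5hmC. Btrc, a ubiquitin ligase subunit for GLI proteins, and Evc, a ciliary partner of Smoothened, each had day 10 5mC and day 5 5hmC. Prdm1, a transcriptional repressor, had day 10 5mC and 5hmC, Dyrk2, a kinase, day 10 5mC, and Bcl2 and Gpr161 day 10 5hmC.

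In the PTHrP list, 15 of 37 further genes had a peak (40.5%). Pde4d, a phosphodiesterase gene of 1503.5 kb, had 5 day 10 5mC and 6 day 10 5hmC peaks. Prkar1b, a regulatory subunit of protein kinase A, had 1 day 10 5mC, 3 day 5 5hmC and 2 day 10 5hmC peaks, and both day 10 peaks overlapped a day 5 peak (chr5:139017768-139018152 in chr5:139017482-139018287, and chr5:139112547-139112799 in chr5:139112134-139113081). The adenylyl cyclase gene Adcy9 had 2 day 5 and 1 day 10 5hmC peaks, Adcy6 had 1 day 10 5hmC peak and Adcy2 1 day 10 5mC peak. Plcb1, a phospholipase, had 3 day 10 5hmC peaks and Slc9a3r1, a scaffold that binds the PTH receptor, had 2. Sik3, a kinase of class II histone deacetylases, had 1 5hmC peak at each day, and Akap13 and Crtc1 had 1 day 10 5hmC peak each.

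In the Notch list, 10 of 46 further genes had a peak (21.7%). Of the genes of co-repressors, Spen had day 10 5mC and day 10 5hmC, Ctbp1 day 10 5hmC, Cir1 day 5 5hmC and Ncor1 day 10 5mC. Kat2b, an acetyltransferase of the active complex, had day 10 5mC. Of the ubiquitin ligase genes, Neurl1a had 2 day 10 5hmC peaks, Dtx2 had 1, and Dtx1 and Dtx4 had 1 day 5 5hmC peak each.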

How the data were processed

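Genomic DNA of ATDC5 cells was enriched for 5mC with a methyl-CpG binding protein complex, or for 5hmC after a glucosyltransferase added a tagged sugar. Per the study's methods, the authors checked reads with FastQC, trimmed them with cutadapt, aligned them to GRCm38 with BWA and ran MACS 1.4.2. The 4 deposited lists hold positions and, for part of the peaks, a symbol. Their headers give at least 3-fold enrichment for 5mC and at least 10-fold for 5hmC, whose samples were merged by day. The study describes the calls as regions in which chondrocytes gained or lost a mark relative to progenitors. Which sample each deposited list was compared with is not given in the sources used here, so a list may not hold all sites of a mark. Threshold, control and depth change the number and width of peaks.

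Start and end were taken as the first and last base. Genes were from GENCODE mouse release M21. Peaks were assigned by symbol or by overlap of at least 1 bp with the gene or the 5000 bp upstream, and 31 of 34 met both criteria. Upstream was taken before exon and intron. Python 3.11.15, pandas 2.3.3 and pysam 0.24.0 were used, and the assignment was tested on simulated peaks. No statistical test was made. The genes, lists, motifs and rules were chosen with earlier results of these data known. Every gene with a peak was named, and of the 122 further genes at most 10 per pathway by number of peaks, of which 1 is not reported here. Alternatives varied the upstream length, overlap, assignment, location rule and merging.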

Additional observations from a re-analysis of the deposited data

How the results depend on the processing

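Of 59 alternatives to counts of genes and peaks above 0, 55 gave counts within 1.5 times those reported. A further 15 set 0 against 0, for day 0 5mC, and say nothing of stability, and 3 concerned median CpG density and stayed within 1.5 times. With a required overlap of 50% of the length of both peaks, no peak of these genes was shared between the 5hmC days (0 of 7 day 5 and 0 of 23 day 10 peaks, against 1 and 1), which follows from the different widths of the lists. With 2000 bp taken as upstream, 1 peak was upstream instead of 2, and with peaks placed by their midpoint, 3 were over an exon instead of 7. Of 20 alternatives to motif counts, made in 200 bp windows, 4 moved by over 1.5 times: TGGGAA in day 5 peaks from 6 to 1, the HES and HEY string in day 5 peaks from 4 to 2, and the SOX string from 1 to 0 at day 5 and from 1 to 2 at day 10. Without Maml3, an alternative chosen after seeing the data, there were 16 day 10 and 5 day 5 5hmC peaks. No paired analysis was possible because the 5hmC samples of each day, which share replicate numbers, were merged into 1 list, and each 5mC list came from 1 sample. So no replicate could be left out, and a stricter threshold could not be applied to lists without a fold. The direction of each comparison of days rests on the labels.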
